A study of Equus asinus with 3 samples.

Results

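The nuclear genes for the subunits of oxidative phosphorylation were described in single-cell RNA sequencing of donkey (Equus asinus) testis and epididymis. The set held every feature whose name starts with NDUF, UQCR, ATP5, COX4, COX5, COX6, COX7 or COX8, and SDHA to SDHD, which gave 93 genes of 34267 features over the 3 libraries. Of these, 68 carried their symbol in the files and 25 carried a locus number that a RefSeq table (assembly EquAss-T2T_v2) pairs with the symbol. The set divides into 37 complex I subunits, 8 NDUFAF assembly factors of complex I, 4 complex II subunits, 8 complex III subunits, 18 complex IV subunits and 18 genes of ATP synthase. Membership followed the names only, but the set was chosen with earlier results of these data known. COX6B2 and COX8B were not matched to a feature and are not analysed here.

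The study took testis and epididymis from 3 sexually mature male donkeys, and its stated purpose was to follow spermatogenesis and sperm maturation. It gave 1 library of testis, labelled as germ cells, 1 of the epididymis caput and 1 of the epididymis corpus, both labelled as somatic cells. No treatment or genotype is labelled, and neither is the donkey or donkeys behind each library. The epididymis cauda is not analysed here. All tissues were kept in storage solution, minced and digested with collagenase IV and DNase I, and their cells were captured in droplets (DNBelab C series kit).

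Oxidative phosphorylation makes most of the ATP of respiring cells in the inner mitochondrial membrane. Complex I (NADH dehydrogenase) and complex II (succinate dehydrogenase) pass electrons to ubiquinone, complex III passes them on to cytochrome c, complex IV (cytochrome c oxidase) hands them to oxygen, and ATP synthase uses the proton gradient that complexes I, III and IV build. Several complex IV subunits have paralogues made in particular tissues: COX7B2 and COX8C are known as testis forms of COX7B and COX8A, and COX4I2, COX6A2 and COX7A1 as lung or muscle forms. Developing sperm are also known to silence most of the X chromosome during meiosis. In mammals NDUFA1, NDUFB11 and COX7B lie on that chromosome.

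The testis library held 8528 cells after doublet removal with a median of 4697.5 unique molecular identifiers (UMIs, tags that mark single captured RNA molecules), the caput library 9478 with 1145 and the corpus library 9609 with 371. In the testis, late spermatocyte-like, round spermatid-like and elongating spermatid-like clusters held 19.97%, 23.4% and 6.84% of the cells. A further 39.9% lay in clusters left without a stage name, counted as germ-like mainly because their summed germ markers reached at least 0.6 times the median of the named germ clusters, which makes 90.1% in all. Caput clusters with germ cell markers held 2.52%, although that library is labelled somatic. In the caput 48.5% of barcodes and in the corpus 50.3% fell into clusters rich in very long genes, with ribosomal protein genes at 1.37 and 5.05% of UMIs in the caput clusters and 0.458% in the corpus cluster. Doublet calling marked 82 testis cells, 0 in the caput and 0 in the corpus, so it did not work in the epididymal libraries. The files number the barcodes in sequence, so barcodes shared between libraries could not be counted.

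Levels below are counts per 1000000 UMIs (CPM) of the summed cells of a library, class or cluster. Values in brackets are exact 95% intervals and cover counting error only, since there is 1 library per tissue and no replicate. No p-value can be given. A gene was compared only where the side with the higher CPM had at least 50 UMIs, and was called higher when the whole interval of the ratio lay beyond 2-fold. Counts of called genes are read against the share of all compared features called the same way. Capture differs between genes, so levels are compared between cells, not between genes.

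The 93 genes together took 1.74% (1.74 to 1.74%) of all UMIs in the testis library, 0.899% (0.894 to 0.905%) in the caput and 0.409% (0.403 to 0.415%) in the corpus. Among cell classes the highest share was that of the clear or narrow-like cells of the caput, at 2.60% (2.51 to 2.69%) in 91 cells that express proton pump genes such as ATP6V0D2. Late spermatocyte-like cells of the testis stood at 1.87% (1.86 to 1.88%), round spermatid-like cells at 1.68% (1.67 to 1.69%) and elongating spermatid-like cells at 1.39% (1.38 to 1.40%). The luminal epithelial-like clusters 5, 6, 7 and 8 of the caput, the cells that line the duct, held 1.79%, 1.54%, 1.48% and 1.33%, and the corpus luminal-like cluster 1.29% (1.23 to 1.35%). T or NK-like cells, macrophage-like cells and fibroblast-like cells of the caput held 1.02%, 1.01% and 0.827%, against 0.581%, 0.744% and 0.574% in the corpus. The macrophage-like class of the caput, here and below, joins cluster 9, at 0.926%, and cluster 13, of 53 cells, at 1.66%. The defensin gene DEFB119 was at 1422 CPM in cluster 9 and 13721 CPM in cluster 13, against 16053 CPM in caput luminal-like cells. Whether cluster 13 mixes cell types was not tested. The long-gene clusters of the epididymis were lowest, at 0.375% in the caput and 0.140% in the corpus, while a testis cluster led by long genes, of 324 cells, held 1.53% (1.51 to 1.55%).

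**Figure D1:**
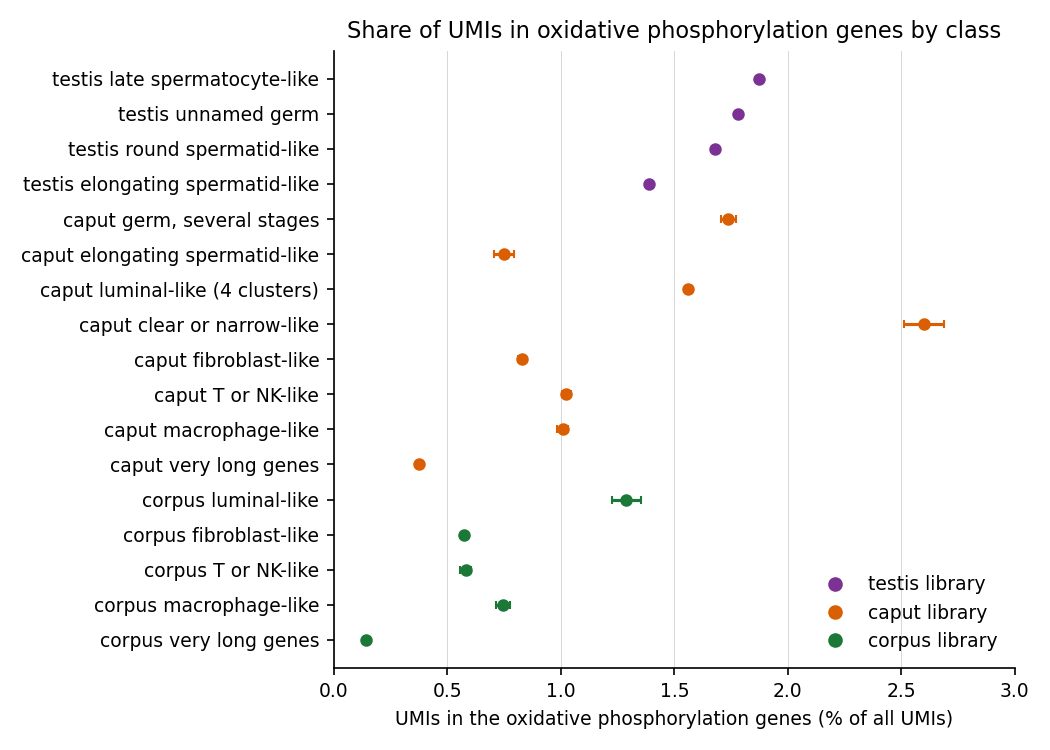
Share of UMIs (percent) that fall in the 93 oxidative phosphorylation genes for each cell class of the testis, caput and corpus libraries, with exact 95% intervals for counting error. The clear or narrow-like cells of the caput lie highest at 2.60% and the long-gene barcodes of the corpus lowest at 0.140%.

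In complex IV, testis germ cells and epididymal somatic cells held opposite members of the COX7B and COX8A paralogue pairs. COX7B2, the testis form of the small subunit COX7B, had 2893 of 2902 UMIs of the pair in late spermatocyte-like cells, 2434 of 2442 in round spermatid-like cells and 515 of 524 in elongating spermatid-like cells, or 99.7% (99.4 to 99.9%), 99.7% (99.4 to 99.9%) and 98.3% (96.8 to 99.2%). In the luminal-like cells of the caput it had 55 of 1214 UMIs, or 4.53% (3.43 to 5.86%), and in those of the corpus 1 of 44. The germ cell range did not overlap that of the luminal-like cells of either region. Because 1 read of each paralogue need not stand for the same number of molecules, these shares compare groups of cells and do not give a protein ratio.

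COX8C, the testis form of COX8A, took 90.6% (89.3 to 91.8%) of the COX8A and COX8C UMIs in late spermatocyte-like cells, 96.9% (95.9 to 97.8%) in round and 95.3% (92.4 to 97.4%) in elongating spermatid-like cells. It took 0.611% (0.264 to 1.20%) in caput luminal-like cells (8 of 1309 UMIs) and 0.395% (0.01001 to 2.18%) in caput fibroblast-like cells. The corpus matrix lists only features with at least 1 UMI and does not list COX8C, while COX8A had 357 UMIs there. Both testis forms thus dominated their pairs in every named germ class of the testis library, and neither did in a named somatic class of the epididymis.

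The few somatic cells inside the testis library provide a comparison within 1 library. Its T or NK-like cluster, of 29 cells, had 2 of 12 UMIs of the first pair in COX7B2 and 2 of 28 of the second in COX8C. COX7B stood at 145 CPM (69.5 to 267) and COX8A at 377 CPM (246 to 552) there, against 0.694 and 3.99 CPM in round spermatid-like cells. The macrophage-like cluster of 21 cells was less clear cut, with 15 of 26 UMIs in COX7B2 and 1 of 5 in COX8C. Germ cell RNA was counted in both clusters: PDHA2 and TNP1, known from germ cells, were at 520.1 and 433 CPM in the macrophage-like cluster and 116 and 159 CPM in the T or NK-like cluster, against 585 and 889 CPM in all testis germ-like cells. Its part in these shares was not tested.

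UMIs of COX7B2 were also counted in somatic classes of the epididymis. Its share of the pair was 19.6% (14.4 to 25.7%) in fibroblast-like cells of the caput and 30.7% (24.3 to 37.6%) in those of the corpus, and 8.71% (5.91 to 12.3%) and 34.4% (22.9 to 47.3%) in T or NK-like cells. RNA of other germ cell genes was counted in the same caput classes, with TNP1 at 40.3 CPM in T or NK-like cells, 19.7 in luminal-like cells, 18.4 in those like fibroblasts and 14.4 in those like macrophages, and PDHA2 at 5.76 to 7.74 CPM over them. In these 4 classes of the corpus both genes had 0 UMIs. The part of germ cell RNA, and of RNA from the long-gene barcodes, in the COX7B2 shares was not tested. In the long-gene barcodes it was 54.1% (50.9 to 57.2%) and 91.9% (87.8 to 94.98%). The level of COX7B2 in those barcodes was 94.8 CPM (86.98 to 103) in the caput and 118 CPM (103 to 135) in the corpus, which lies below the 211 CPM (203 to 219.8) of round spermatid-like cells and above the 20.5 CPM (15.4 to 26.7) of caput luminal-like cells. COX8C did not show the same pattern: it was at 2.44 CPM (1.34 to 4.10) in the long-gene barcodes of the caput and not listed in the corpus. Very long genes took 3.95 and 3.03% of UMIs in the caput barcodes and 3.84% in the corpus barcodes, and their part in the COX7B2 level was not tested.

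**Figure D2:**
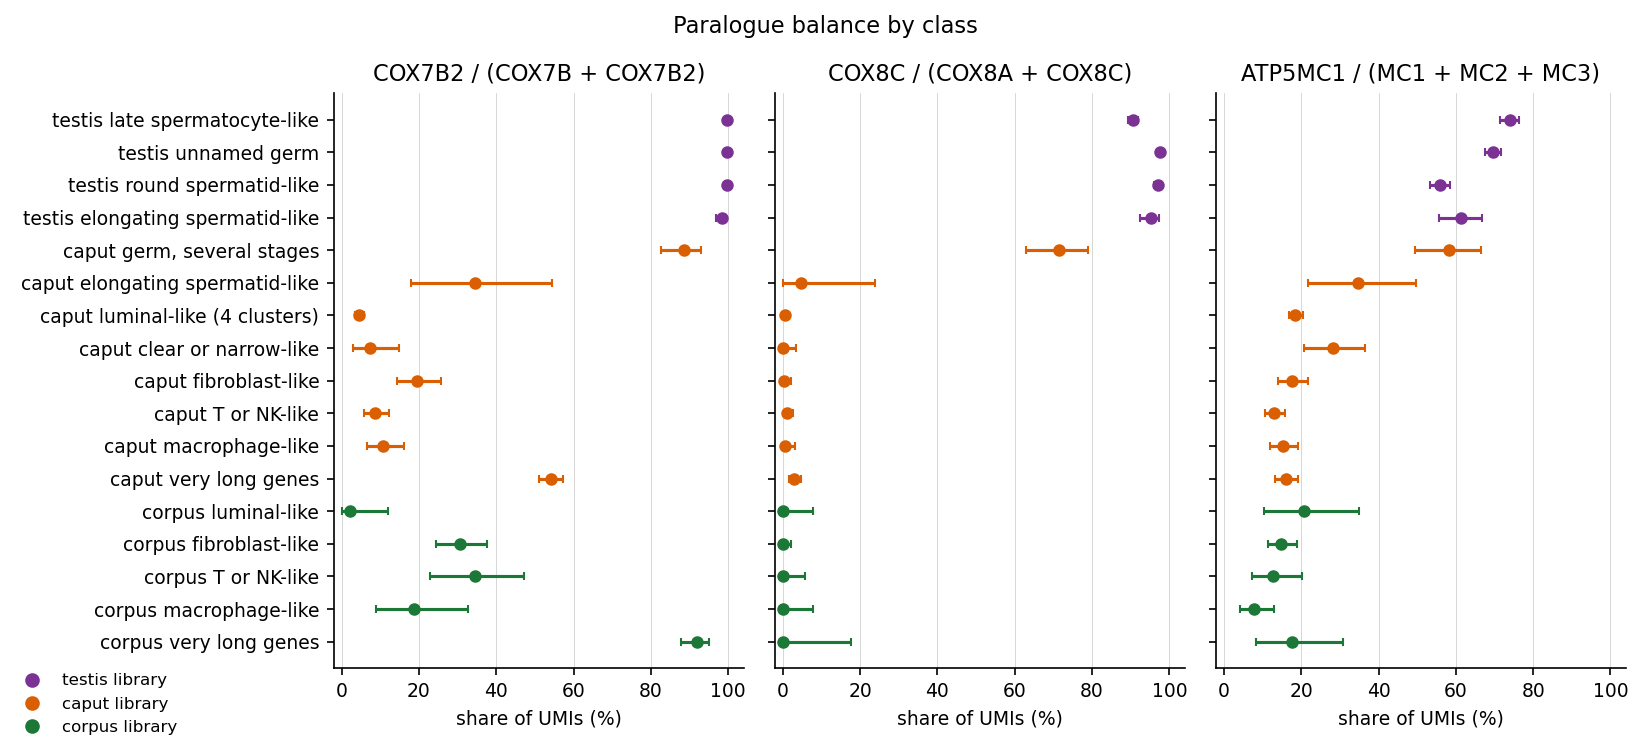
Percent of UMIs of each paralogue set that fall in COX7B2 (of COX7B and COX7B2), COX8C (of COX8A and COX8C) and ATP5MC1 (of the 3 c ring genes) by cell class, with exact 95% intervals. Testis germ classes lie at 90.6% or above for COX7B2 and COX8C, and the luminal-like classes at 4.53% or below.

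The c ring of ATP synthase, the rotor that protons turn, is encoded by ATP5MC1, ATP5MC2 and ATP5MC3, which yield the same mature protein. ATP5MC1 took 73.9% (71.5 to 76.2%) of their UMIs in late spermatocyte-like cells, 55.9% (53.3 to 58.6%) in round and 61.3% (55.7 to 66.8%) in elongating spermatid-like cells, but 18.5% (16.7 to 20.4%) in caput luminal-like cells, 28.1% (20.8 to 36.5%) in clear or narrow-like cells and 20.8% (10.5 to 34.99%) in corpus luminal-like cells. ATP5MC1 itself was at 67.96 CPM (63.3 to 72.9) in round spermatid-like cells and 119 CPM (107 to 133) in caput luminal-like cells and was not called. ATP5MC2 was at 44.003 against 323 CPM (7.35-fold, interval 6.58 to 8.22, higher in luminal-like cells) and ATP5MC3 at 9.55 against 201 CPM (21.1-fold, interval 17.1 to 26.1).

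COX7A1, the muscle form of COX7A2, took 3.50% (2.92 to 4.16%) of that pair in late spermatocyte-like cells, 11.8% (10.7 to 13.02%) in round and 12.1% (10.1 to 14.4%) in elongating spermatid-like cells. In luminal-like cells the share was 22.1% (19.5 to 24.8%) in the caput and 7.41% (0.910 to 24.3%) in the corpus. It differed among the caput luminal-like clusters, where the level of COX7A1 ran from 129 CPM in cluster 5 through 87.3 and 69.1 to 25.9 in cluster 8. The forms COX4I2, COX6A2 and NDUFA4L2 were close to 0 in every library, with 2, 7 and 2 UMIs of COX4I2 and 10, 1 and 1 of COX6A2 in testis, caput and corpus, and were not compared.

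To set germ against epithelial cells over the whole set, round spermatid-like cells of the testis (1995 cells) were compared with the luminal-like cells of the caput (1767 cells, clusters 5 to 8). Of 87 genes compared, 17 were called higher in round spermatid-like cells, where 35.5% of all compared features were, and 28 higher in luminal-like cells, where 31% of all were. The other 42 were called in neither direction. The median log2 ratio of round to luminal was -0.19 for the compared genes of the set and 0.53 for all compared features. Scaling by the median gene ratio in place of total UMIs moved all ratios by 0.61 in log2 and gave 30 and 24 calls (background 43.2% and 25.1%), with 17 and 24 shared by both scalings. Cell type and library cannot be told apart here.

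Cluster 5 of the luminal-like cells had the defensin DEFB119, a gene of the Sertoli list, and no luminal marker among its top 10 genes, and cluster 7 had no luminal marker there, so the comparison was repeated by cluster number. Calls higher in round spermatid-like cells and higher in the cluster were 13 and 26 of 82 with cluster 5, 15 and 21 of 76 with cluster 6, 17 and 21 of 77 with cluster 7 and 19 and 19 of 78 with cluster 8. Over all features the shares were 39.2% and 14.3%, 35.2% and 11.2%, 36.2% and 12.7% and 36% and 12.2% in the same order. The levels named below are followed by the range over these clusters.

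Complex I subunits gave 7 higher in round spermatid-like and 7 higher in luminal-like cells of 37 compared, where 35.5% and 31% of all features were called. Among the accessory subunits of complex I, NDUFB5 was at 7.90 against 139 CPM (clusters 115 to 155; 17.6-fold, interval 13.99 to 22.4, higher in luminal-like cells), followed by NDUFA1, NDUFA13, NDUFA3, NDUFA10 and NDUFS5. In the other direction NDUFB4 was at 785 against 149 CPM (clusters 105 to 177; 5.28-fold, interval 4.77 to 5.85, higher in round spermatid-like cells), NDUFA8 at 412 against 98.3 (4.19-fold, interval 3.70 to 4.76) and NDUFA6 at 695 against 193 (3.59-fold, interval 3.29 to 3.94). Subunits of 1 complex thus lay on both sides.

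The NDUFAF assembly factors help build complex I without staying in it. They gave 2 higher in round spermatid-like and 3 higher in luminal-like cells of 6 compared (background 35.5% and 31%). NDUFAF6 was at 2.08 against 64.1 CPM (clusters 53.4 to 89.1), 30.8-fold (19.999 to 49.3) higher in luminal-like cells. NDUFAF2 was at 312 against 37.997 CPM (clusters 28.5 to 45.3), 8.22-fold (6.75 to 10.1) higher in round spermatid-like cells, and NDUFAF5 differed 6.26-fold (4.45 to 9.10) the same way. The levels of NDUFAF2 and NDUFAF6 in long-gene barcodes are given further on.

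All 4 complex II genes were called, where 35.5% and 31% of all compared features were. In this comparison their direction followed the part of the enzyme they encode. SDHA and SDHB, the catalytic flavoprotein and iron-sulfur subunits in the matrix, were at 240.1 and 254 CPM in round spermatid-like cells and 56.3 and 80.8 in luminal-like cells (clusters 47.1 to 61.5 and 45.3 to 97.8), which is 4.27-fold (3.62 to 5.06) and 3.15-fold (2.74 to 3.63) higher in the former. SDHC and SDHD, the membrane anchors, were at 19.7 and 6.68 against 91.6 and 49.5 CPM (clusters 82.9 to 102 and 37.7 to 59.8), 4.65-fold (3.87 to 5.60) and 7.41-fold (5.56 to 9.95) higher in luminal-like cells. Calls for all 4 genes were the same under both scalings. In late spermatocyte-like cells the level of SDHA, given further on, lay below that of luminal-like cells.

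In complex III, UQCRC2, a core subunit, was at 733 CPM in round spermatid-like cells and 64.4 in luminal-like cells (clusters 43.7 to 81.7), 11.4-fold (9.78 to 13.3) higher in the former. The small subunits UQCR10 and UQCR11 were at 1.996 and 17.4 against 23.5 and 202 CPM, 11.8-fold (7.19 to 19.9) and 11.6-fold (9.84 to 13.7) higher in luminal-like cells. Over the complex there were 1 higher in round spermatid-like and 3 higher in luminal-like cells of 8 compared (background 35.5% and 31%).

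Complex IV held the largest ratio of the set, that of COX7B. It gave 2 genes higher in round spermatid-like and 7 higher in luminal-like cells of 15 compared (background 35.5% and 31%). COX7B was at 0.694 against 432 CPM (clusters 361 to 534), 622-fold (315 to 1444) higher in luminal-like cells, and COX8A at 3.99 against 485 (clusters 424 to 562; 121-fold, interval 90.5 to 167). NDUFA4, once assigned to complex I and now known as a complex IV subunit, was at 15.3 against 601 CPM (clusters 369 to 739.9), 39.3-fold (33.6 to 46.2) higher in luminal-like cells. Of the germ forms, COX8C was at 127 against 2.98 CPM (42.5-fold, interval 21.5 to 98.7, higher in round spermatid-like cells) and COX7B2 at 211 against 20.5 (10.3-fold, interval 7.89 to 13.7). COX6A1 and COX6B1, small nuclear subunits of the complex, were at 15.97 and 36.5 against 317 and 282 CPM and were called higher in luminal-like cells. COX4I1 was at 455 against 377 CPM and COX7A2 at 237 against 291, and neither was called.

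ATP synthase genes gave 3 higher in round spermatid-like and 6 higher in luminal-like cells of 17 compared (background 35.5% and 31%). ATP5IF1, the inhibitor that holds back ATP hydrolysis, was at 749 against 215 CPM (clusters 167 to 255), 3.49-fold (3.20 to 3.80) higher in round spermatid-like cells. ATP5F1E and ATP5F1D, subunits of the central stalk, were at 35.7 and 7.98 against 384 and 51.8 CPM, 10.8-fold (9.60 to 12.1) and 6.48-fold (4.95 to 8.53) higher in luminal-like cells.

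Within the testis, late spermatocyte-like cells (1703 cells) were compared with round spermatid-like cells, the haploid cells that follow meiosis. Of 88 genes compared, 7 were called higher in late spermatocyte-like cells, against 13.9% of all features, and 6 higher in round spermatid-like cells, against 32.9%. The median log2 ratio of late spermatocyte to round spermatid was 0.30 for the compared genes of the set and -0.16 for all compared features.

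Genes higher after meiosis included NDUFA1, a small membrane subunit of complex I on the X chromosome, at 1.69, 27.4 and 20.9 CPM in late spermatocyte-like, round and elongating spermatid-like cells, 16.2-fold (10.1 to 27.8) higher in round than in late spermatocyte-like cells. The other X-linked genes were NDUFB11, at 7.98, 17.2 and 14.2 CPM, and COX7B, at 0.845, 0.694 and 2.72 CPM. NDUFB11 was not called and COX7B, with 9 and 8 UMIs in late spermatocyte-like and round spermatid-like cells, was not compared. In caput luminal-like cells NDUFA1, NDUFB11 and COX7B were at 222, 36.9 and 432 CPM, so the round spermatid-like cells stayed below that level for all 3 genes, with NDUFB11 not called.

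SDHA was at 36.4, 240.1 and 216 CPM in the 3 stages, 6.59-fold (5.93 to 7.35) higher in round than in late spermatocyte-like cells, and UQCRC2 at 226, 733 and 744 CPM (3.24-fold, interval 3.10 to 3.39). ATP5MK, COX7A1 and ATP5MC2 were also called higher in round spermatid-like cells. SDHB was at 205, 254 and 314 CPM and SDHC at 18.8, 19.7 and 36.3 CPM, and neither was called. Late spermatocyte-like cells had the higher level of COX6A1, at 91.1, 15.97 and 9.97 CPM (5.71-fold, interval 4.87 to 6.72), COX8A, at 18.8, 3.99 and 4.53 CPM (4.70-fold, interval 3.40 to 6.63), UQCR10 (4.51-fold, interval 2.84 to 7.46), NDUFB5 (3.36-fold, interval 2.65 to 4.31), SDHD (2.81-fold, interval 2.15 to 3.70), NDUFA4 (2.70-fold, interval 2.26 to 3.24) and UQCRC1 (2.32-fold, interval 2.15 to 2.50). Under median ratio scaling, which moved ratios by -0.24 in log2, SDHD, NDUFA4 and UQCRC1 were no longer called.

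**Figure D3:**
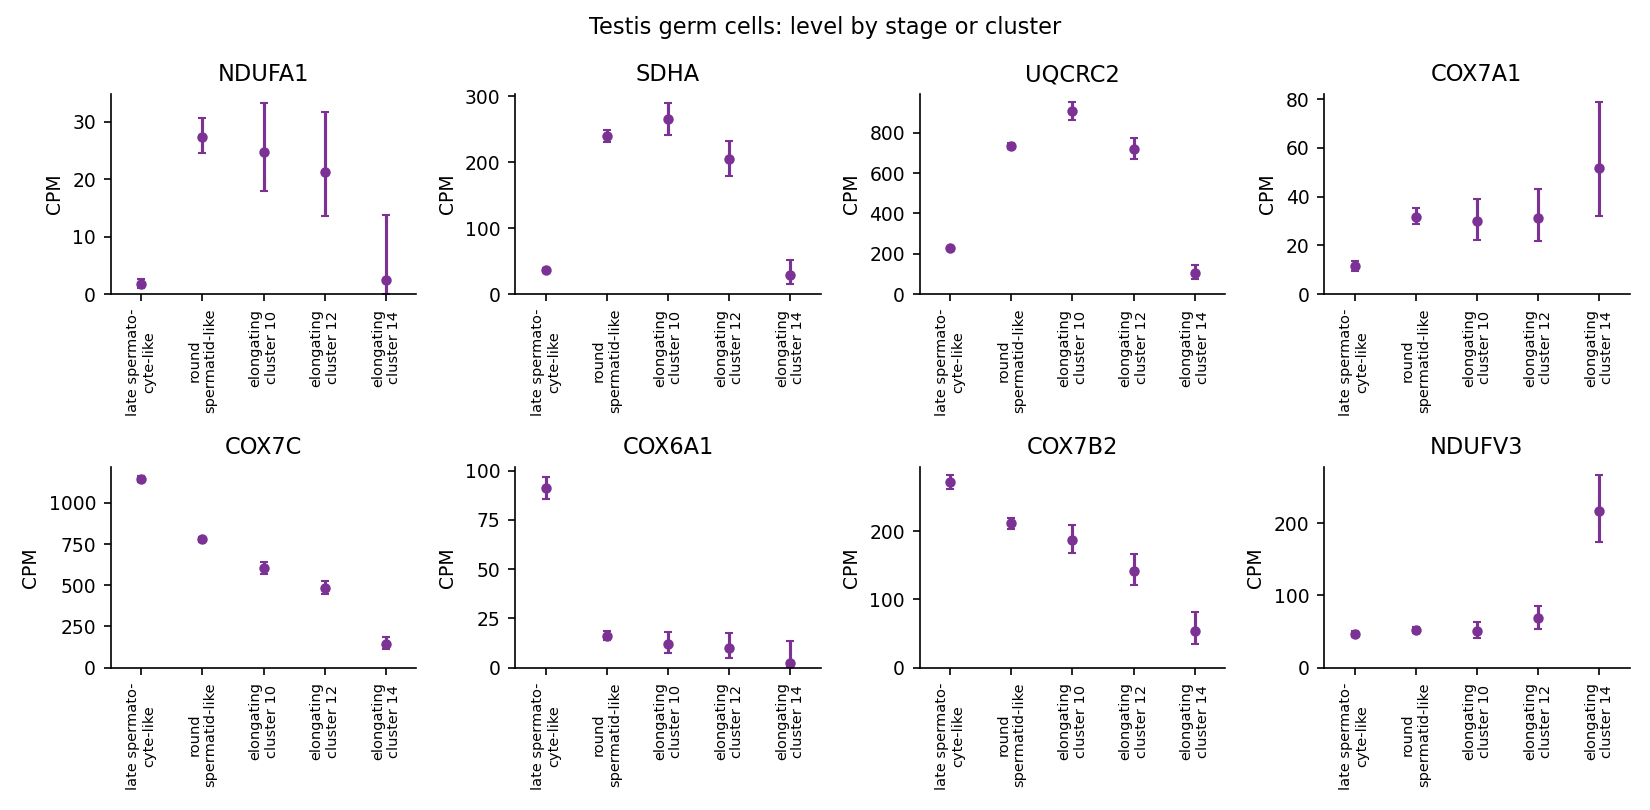
Level (CPM) of selected genes in testis germ classes in the order of the named stages, with exact 95% intervals. SDHA and UQCRC2 are higher in round spermatid-like than in late spermatocyte-like cells, and COX6A1 is lower.

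From round to elongating spermatid-like cells (583 cells) no gene of 85 compared was called, against 2.6% and 8.66% of all features. The elongating class was not uniform. Its clusters 10, 12 and 14 held 1.55%, 1.35% and 0.795% of UMIs in the set, and summed elongating spermatid markers of 12893, 21985 and 105634 CPM. In cluster 14 alone, 30 of 73 were called higher in round spermatid-like cells (background 18.9%) and 2 higher in cluster 14 (background 5.73%). The median log2 ratio was 1.46 for these genes and 1.30 for all compared features. NDUFA8, a complex I subunit, was at 412 CPM in round spermatid-like cells and 46.7 in cluster 14, and NDUFV3 and NDUFB7 were the genes called higher in cluster 14, at 216 against 51.4 and 138 against 50.9 CPM. UMI sums give the share of a cell's RNA, so less RNA per cell cannot be told apart from other RNA taking more of it.

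Between whole libraries, 34 of 90 genes were called higher in testis than caput (background 18.9%) and 20 higher in caput (background 54.2%). Against the corpus the counts for testis were 52 higher and 10 lower of 90 (background 23.6% and 47.2%). UQCRC2 was at 464, 59.8 and 34.8 CPM in testis, caput and corpus, and ATP5IF1 at 687, 137 and 57.9. NDUFAF6 ran the other way, at 3.87, 72.5 and 76.3 CPM. A library sum mixes cell types, and the share of each type and the level per cell cannot be told apart in it. Median ratio scaling moved testis to caput by 1.15 in log2 and gave 55 higher and 8 lower (background 31.3% and 41.6%). For testis to corpus it moved by 1.93 and gave 75 higher and 2 lower (background 44.8% and 28.2%). Without the long-gene clusters, testis against caput gave 23 higher and 25 lower (background 22% and 44.5%).

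Within the caput, luminal-like cells held 12 genes of 81 called higher than in fibroblast-like cells and 0 lower (background 8.26% and 12.5%). They were NDUFB2, NDUFA4, COX7A1, NDUFS5, ATP5F1E, UQCRH, NDUFB1, ATP5MK, COX7B, NDUFAF3, UQCRQ and ATP5MG. By cluster the counts called higher were 20, 10, 8 and 2 for clusters 5, 6, 7 and 8 (background 10.2%, 8.02%, 7.17% and 5.43%). NDUFB2, a small complex I subunit, was at 313 against 97.7 CPM (3.21-fold, interval 2.61 to 3.98) and COX7A1 at 82.3 against 23.2 (3.55-fold, interval 2.32 to 5.65). Against T or NK-like cells 2 genes of 83 were called higher in luminal-like cells (NDUFS5 and COX7A1; background 6.95%), and against macrophage-like cells 3 of 80 (COX6C, NDUFB2 and UQCR10; background 8.06%). By cluster the counts called higher were 8, 2, 3 and 0 against T or NK-like cells (background 7.23%, 6.41%, 6.18% and 4.94%) and 10, 2, 1 and 0 against macrophage-like cells (background 11.4%, 10.1%, 9.54% and 7.45%), with SDHB alone called lower in cluster 8 than in macrophage-like cells. Over all 4 clusters together none was called lower, where 10% and 10.5% of all features were. Against the elongating spermatid-like cells of the caput 13 of 72 were called higher and 0 lower (background 6% and 4.44%). No gene of the set reached the UMI minimum in these elongating spermatid-like cells. None could therefore be called lower in luminal-like cells, and the 0 does not show a direction. The same limit holds for this comparison under median ratio scaling. Median ratio scaling moved luminal to fibroblast by 0.62 in log2 and gave 52 calls higher in luminal-like cells (background 17.1%), 24 against T or NK-like (background 12.7%), 20 against macrophage-like (background 12.8%) and 34 against elongating spermatid-like cells (background 14%), and none lower. With the deeper sum thinned to the shallower, 1 of 68 was called against macrophage-like (background 9.67%) and 3 of 11 against elongating spermatid-like cells (background 23.6%). Beyond 4-fold none was called in any of these 4 comparisons. DEFB119, at 16053 CPM in luminal-like cells, was also counted in the classes set against them. It was at 2538 CPM in fibroblast-like, 3195 in T or NK-like, 2796 in macrophage-like and 3026 in elongating spermatid-like cells. The part of RNA from luminal-like cells in these comparisons was not tested.

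Clear or narrow-like cells, which acidify the duct lumen, were too few for most genes: 50 UMIs correspond to 398 CPM there, and 29 genes were compared with luminal-like cells. ATP5F1B, the catalytic beta subunit of ATP synthase, was at 629 CPM (498 to 784) against 235 CPM (217 to 254) and was called higher in clear or narrow-like cells (2.68-fold, interval 2.09 to 3.39). COX6A1 was at 821 CPM (669.8 to 995) against 317 CPM (296 to 339) (2.59-fold, interval 2.09 to 3.18). These 2 calls stand against 1.62% of all features, no gene of the set was called the other way (background 4%), and under median ratio scaling neither was called. The median log2 ratio of luminal to clear was -0.81 for the compared genes and 0.48 for all compared features. In luminal-like cells 50 UMIs correspond to 18.6 CPM, so genes higher in clear or narrow-like cells were compared less often. Both medians carry that filter. By cluster, the calls higher in clear or narrow-like cells were 1, 1, 2 and 5 for clusters 5, 6, 7 and 8 (background 4.02%, 4.92%, 5.31% and 5.8%), and those higher in the cluster 0, 0, 0 and 0 (background 8.17%, 11.8%, 11.5% and 11%).

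Between the regions of the epididymis, 43 of 90 genes were called higher in the caput library than in the corpus library and 0 lower, against 7.02% and 1.77% of all features. The median log2 ratio was 1.24 for the set and -0.08 for all. NDUFB2 was at 153 against 29.9 CPM (5.11-fold, interval 4.26 to 6.17), UQCRQ, a small complex III subunit, at 165 against 35.97 (4.58-fold, interval 3.88 to 5.45) and COX7A1 at 40.7 against 6.76 (6.03-fold, interval 4.12 to 9.16). COX8C had 127 UMIs in the caput, where germ-like cells were present, and is not listed in the corpus. Without the long-gene clusters 30 of 88 were called higher in the caput and 0 lower (background 9.54% and 3.55%). Among cells with at least 500 genes, 7 were called (background 3.25% and 1.67%).

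Within the classes few or no genes were called. Luminal-like cells gave 0 calls of 62 compared (background 2.79% higher in the caput), fibroblast-like cells 0 of 68 (background 1.85%), macrophage-like cells 0 of 52 (background 5.27%) and T or NK-like cells 2 of 72 (background 3.46%), and no gene was called higher in the corpus in any of them, where 1.45%, 0.36%, 1.93% and 0.794% of all features were. Median ratio scaling gave 23 calls in T or NK-like cells (background 8.11%), and 0 were left beyond 4-fold, with the deeper sum thinned, or among cells with at least 500 genes. The 2 genes under scaling by total UMIs were NDUFB2 (4.17-fold, interval 2.33 to 8.24) and UQCR11 (5.02-fold, interval 2.22 to 14.01), the latter a small complex III subunit. In T or NK-like cells NDUFAF2 was at 72.02 CPM in the caput and 128 in the corpus and NDUFAF6 at 73.7 and 83.7, and neither was compared, with 46 and 30 UMIs on the corpus side. Median log2 ratios of caput to corpus were 0.42, 0.56, 0.52 and 0.91 for luminal, fibroblast, macrophage and T or NK-like cells, against 0.50, -0.02, 0.28 and 0.39 for all compared features. In the same order 50 UMIs correspond to 18.6, 48.4, 72.0 and 42.9 CPM in the caput and 401, 35.5, 161 and 140 CPM in the corpus. Where the corpus limit is the higher, genes higher in the corpus were compared less often. These medians carry that filter and do not measure direction alone. The corpus cells had a median of 371 UMIs, and 50 UMIs correspond to 401 CPM in its luminal-like cluster, which left fewer genes to compare. A call also needed the whole interval beyond 2-fold, so smaller differences were not called. As a sum, the set held 0.827% (0.810 to 0.845%) of UMIs in caput and 0.574% (0.562 to 0.587%) in corpus fibroblast-like cells. Shares of the luminal, macrophage and T or NK-like cells were also higher in the caput. By cluster, caput luminal-like cells against those of the corpus gave 1, 0, 0 and 0 calls higher in caput clusters 5, 6, 7 and 8 (background 7.56%, 9.55%, 5.04% and 8.16%), the single gene being COX7A1, and 0, 0, 0 and 0 higher in the corpus (background 4.29%, 5.17%, 3.83% and 5.19%). DEFB119, counted in the caput classes as given above, was at 2.13 CPM in corpus fibroblast-like cells. It had 0 UMIs in T or NK-like, macrophage-like and luminal-like cells of the corpus. The part of RNA from caput luminal-like cells in these comparisons was not tested.

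**Figure D4:**
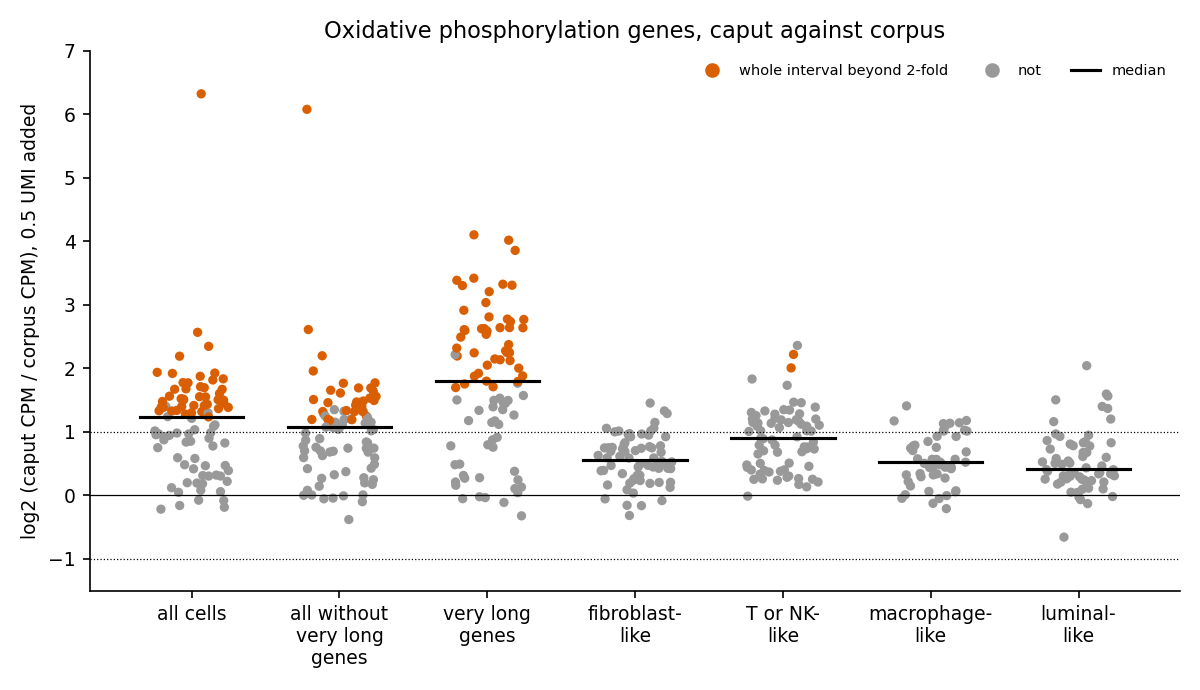
Log2 ratio of caput to corpus CPM, with 0.5 UMI added, for the genes of the set in the libraries and in each class found in both regions. The library ratios lie higher, with a median of 1.24, than those within luminal-like cells, at 0.42.

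The long-gene barcodes of the caput and corpus, whose cells were not named, had the set low as a whole. The long-gene cluster of the testis, at 1.53%, had very long genes at 0.707% and ribosomal protein genes at 2.09% of UMIs and is not part of this comparison. In the caput 75 of 90 genes were called higher in the other cells than in these barcodes and 0 lower (background 18.1% and 28%), and in the corpus 68 higher and 1 lower of 80 (background 19% and 5.49%). The gene called higher in the corpus long-gene barcodes was COX7B2, at 118 against 41.8 CPM (2.83-fold, interval 2.21 to 3.64). NDUFAF2 was at 129.5 and 139.7 CPM in the long-gene barcodes of caput and corpus, NDUFAF6 at 83.1 and 84.98, and NDUFS4, a complex I subunit, at 97.2 and 88.6. In the other cells the levels were 81.9 and 81.4 CPM for NDUFAF2, 64.4 and 68.8 for NDUFAF6, and 128 and 95.8 for NDUFS4, and none of the 3 was called in either library. Ribosomal protein genes took the shares of these barcodes' UMIs given above, and their part in the result was not tested.

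Germ-like cells were also found in the caput, in cluster 10 (140 cells with markers of several stages) and cluster 11 (99 elongating spermatid-like cells). Cluster 10 held 1.74% (1.71 to 1.77%) of its UMIs in the set, with COX7B2 at 88.5% (82.6 to 92.9%) of its pair and COX8C at 71.4% (62.95 to 78.9%). Cluster 11 held 0.748% (0.705 to 0.792%), and had 10 of 29 UMIs in COX7B2 and 1 of 21 in COX8C. Fibroblast markers summed to 3142 CPM and T or NK markers to 619 CPM in cluster 11, with TNP1 at 10587 CPM. Luminal markers summed to 206 CPM in cluster 10 and DEFB119 stood at 1146 CPM, against 16053 in luminal-like cells, so markers of other cells were counted in both clusters. Their part in the balance was not tested.

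All testis germ-like cells against all caput germ-like cells gave 0 genes higher in the testis and 4 higher in the caput of 68 compared (background 1.5% and 4.19%). The genes were COX8A (10.03-fold, interval 7.45 to 13.3), NDUFA4 (3.93-fold, interval 3.04 to 5.02), COX6A1 (3.01-fold, interval 2.43 to 3.70) and ATP5MC2 (2.99-fold, interval 2.27 to 3.87). These 4 genes were also called higher in caput luminal-like than in testis round spermatid-like cells. Elongating spermatid-like cells gave 18 genes higher in the testis of 52 (background 17.5%) and 0 higher in the caput (background 3.46%). No gene of the set reached the UMI minimum in the elongating spermatid-like cells of the caput. None could therefore be called higher there, and the 0 does not show a direction. When testis cluster 14 alone was set against these caput cells, 2 of 18 were called higher in the testis, namely ATP5IF1 and NDUFB4. Median ratio scaling gave 35 (background 37.2%) and thinning of the deeper sum 9 of 14 (background 39.1%) in place of the 18.

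The genes around the respiratory chain were read the same way between round spermatid-like and luminal-like cells, where 35.5% and 31% of all features were called. Factors that assemble the complexes, outside the name rule, gave 4 higher in round spermatid-like and 9 higher in luminal-like cells of 25. Electron carriers and enzymes that feed ubiquinone gave 0 higher in round spermatid-like and 4 higher in luminal-like cells of 6. These were ETFB, ETFDH and GPD2, which feed ubiquinone, and CYC1, the cytochrome c1 subunit of complex III, whose name falls outside the rule. The tricarboxylic acid cycle and pyruvate dehydrogenase gave 4 higher in round spermatid-like and 6 higher in luminal-like cells of 16. PDHA2, the testis form of the pyruvate dehydrogenase E1 alpha subunit, was at 668 against 5.96 CPM (112-fold, interval 68.9 to 196, higher in round spermatid-like cells). CS, IDH3A, IDH3G, SUCLG1, SUCLG2 and FH were called higher in luminal-like cells.

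Glycolysis genes with known germ cell forms gave 4 higher in round spermatid-like and 8 higher in luminal-like cells of 15, where PGK2, GAPDHS, PGAM2 and ENO4 lay on the germ side and PGK1, GAPDH, PGAM1 and ENO1 among those on the luminal side. Mitochondrial carriers and channels gave 2 higher in round spermatid-like and 4 higher in luminal-like cells of 8. VDAC2 and VDAC3, outer membrane channels, lay on the germ side, and VDAC1, SLC25A3, SLC25A5 and SLC25A6 on the luminal side. Regulators of mitochondrial biogenesis gave 2 higher in round spermatid-like and 2 higher in luminal-like cells of 7, with TFAM and POLRMT on the germ side and PPARGC1A and ESRRG on the luminal side. The medians of the log2 ratios were -0.48 for the tricarboxylic acid list, -1.28 for glycolysis and -1.97 for electron carriers, beside 0.53 for all compared features.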

How the data were processed

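The deposited matrices hold whole-number UMI counts per feature and cell barcode, and were written by PISA 0.12, per the file headers. Cell Ranger 2.1.1 is named in the submitters' processing notes without its role. No aligner, build or annotation is named in these sources. Of 18266 locus-number features, 749 were named through the RefSeq table. The files hold no mitochondrially encoded feature, so only nuclear genes were measured. The files give 47686179, 13203203 and 4142512 UMIs for testis, caput and corpus.

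Cells with under 200 genes and called doublets were removed. Each library was clustered on its own (scanpy 1.11.5, 2000 variable genes without the set, 30 principal components, 15 neighbours, Leiden resolution 1). Clusters were named "like" a cell type from marker lists, needing at least 3 markers and 20% of the list at 2 times the median of the other clusters, and those thresholds were set after the clusters were seen. UMIs were summed per class. Levels have exact Poisson intervals, ratios exact conditional binomial intervals and shares Clopper-Pearson intervals (scipy 1.17.1). The call rule was tested on simulated data.

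The genes of the set and the lists were chosen with earlier results of these data known. Named genes are the paralogue, X-linked, c ring and complex II genes and, in each comparison and direction, up to 10 further called genes with intervals farthest from 1; NDUFAF2, NDUFAF6 and NDUFS4 in long-gene barcodes and the genes named from the surrounding lists were chosen after their values were seen. Alternatives were another UMI minimum, fold limit, gene minimum, scaling, resolution and doublet treatment, thinning, and clusters taken alone.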

Additional observations from a re-analysis of the deposited data

How the results depend on the processing

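With 1 library per tissue every interval covers counting error only, and no result has a replicate check. No paired analysis was possible because each tissue has 1 library. Counts below give the genes called, with those higher in the first and in the second group in brackets where both occur. Background shares of all compared features follow in the same order, and those for caput clusters taken alone are given above. Beyond 4-fold, testis against caput gave 19 (9 and 10, background 9.82% and 43.9%) and caput against corpus 3 (background 2.27% and 0.276%). Testis against corpus gave 32 over both directions (background 14.1% and 39%). Late spermatocyte-like against round spermatid-like cells gave 3 (1 and 2, background 4.1% and 24.2%). Round spermatid-like against luminal-like cells gave 26 (6 and 20, background 21.9% and 22.6%). All germ-like cells gave 1 (background 0.0351% and 2.16%), and elongating spermatid-like cells of testis against caput 5 (background 4.86% and 1.83%). Luminal-like cells gave 0 against each of fibroblast, T or NK, macrophage, clear or narrow and elongating spermatid-like cells. Backgrounds higher in luminal-like cells were 1.71%, 1.15%, 1.75%, 1.59% and 0.727%. T or NK-like cells of caput against corpus also gave 0 (background 1.7% and 0.198%). Median ratio scaling gave 10 (4 and 6, background 10.7% and 35.2%) for late spermatocyte-like against round spermatid-like cells. For round spermatid-like against luminal-like cells it gave 54 (30 and 24, background 43.2% and 25.1%). In both the balance of directions turned. Median ratio scaling also gave 52, 24, 20, 0 and 34 for luminal-like against fibroblast, T or NK, macrophage, clear or narrow and elongating spermatid-like cells. Backgrounds higher in luminal-like cells were 17.1%, 12.7%, 12.8%, 4.33% and 14%. T or NK-like cells of caput against corpus gave 23 (background 8.11% and 0.264%). Elongating spermatid-like cells of testis against caput gave 35 (background 37.2% and 1.49%). With the deeper sum thinned to the shallower, luminal-like cells gave 1 against macrophage-like cells (background 9.67% and 16.3%). They gave 1 against clear or narrow-like cells (background 22% and 16.1%) and 3 against elongating spermatid-like cells (background 23.6% and 36.6%). T or NK-like cells of caput against corpus gave 0 (background 5.14% and 1.57%). Elongating spermatid-like cells of testis against caput gave 9 (background 39.1% and 18.5%). Cells with at least 500 genes gave 7 for caput against corpus (background 3.25% and 1.67%) and 0 for their T or NK-like cells (background 1.45% and 0.264%). A minimum of 10 UMIs gave 8 for all germ-like cells (background 0.809% and 13.1%). Testis against caput without long-gene clusters gave 48 (23 and 25, background 22% and 44.5%). Chosen after seeing the data, caput cluster 5 alone gave 20, 8, 10 and 1 against caput fibroblast, T or NK, macrophage and clear or narrow-like cells and 1 against corpus luminal-like cells. Cluster 6 gave 1 against clear or narrow-like cells and cluster 7 gave 1 against macrophage-like cells. Cluster 8 gave 2, 0, 1 (0 and 1) and 5, the third with the direction turned. Testis cluster 14 alone gave 32 (30 and 2) against round spermatid-like cells and 2 against caput elongating spermatid-like cells. The background of the former is given above and that of the latter is not given. With the genes of the set allowed into the clustering, luminal-like against T or NK-like cells gave 4 (background 7.07% and 10.4%). Shares of UMIs under that clustering were 1.91% in late spermatocyte-like, 1.67% in round spermatid-like, 1.35% in elongating spermatid-like and 1.61% in luminal-like cells. The share was 1.34% in elongating spermatid-like cells at a clustering resolution of 2, and 1.60% in caput luminal-like and 0.587% in corpus fibroblast-like cells with at least 500 genes. Of values for single genes under these alternatives, 581 kept direction and call and 42 lost the call, 28 of them beyond 4-fold and 12 under median ratio scaling, and none turned. The cause of these changes was not tested, except that a 4-fold limit and a thinned sum by construction leave fewer calls possible. A fold limit also cannot turn a direction, and a lower UMI minimum cannot undo a call. The minimum of 500 genes removed no testis cell. Many single genes were named because they were called, so the 581 do not measure stability alone.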
